A study of Mus musculus with 8 samples.

Results

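Insulin-like growth factor 2 (Igf2), its receptors and the proteins that bind its messenger RNA were followed across mouse embryonic stem (ES) cells with and without a paternal genome. The genes were taken by name: Igf2, Igf2r, Igf1r, Insr, Igf2bp1, Igf2bp2, Igf2bp3 and Grb10, 8 in all. Of these, 6 had a named probe, and their 8 probes were all kept for testing among 12932 tested probes of 25697 on the array. Insr and Igf2bp2 were not analysed here. Kept probes had a detection p-value, which measures signal above background, below 0.05 in each array of 1 group or more.

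The study measured RNA with Illumina bead arrays in 4 groups of 2 arrays each, all from B6D2F1 hybrid mice. The H19-labelled group is parthenogenetic ES cells in which H19 was lowered, per the titles. The Igf2-labelled group is parthenogenetic ES cells made to overexpress Igf2, per the titles. The parthenogenetic group is unmodified ES cells that derive from oocytes and so carry maternal genomes only, and the normal group is ES cells from embryos. Both modified groups share the parthenogenetic background with their controls. The vectors, the promoters behind them, the number of clones, the sex of the cells and any use of feeder cells are details not given in the sources used here. The labels call the arrays of a group biological replicates without saying that they came from separate cultures, so a p-value reflects no more than how far these arrays differ, which may be technical. The study set the modified groups against parthenogenetic ES cells, and the normal group allows a further comparison.

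IGF2 is a secreted growth factor. It signals through the tyrosine kinase receptors IGF1R and INSR, and the adaptor GRB10 dampens that signal. IGF2R, which is also a mannose 6-phosphate receptor, takes IGF2 up for degradation in lysosomes. IGF2BP1, IGF2BP2 and IGF2BP3 bind messenger RNAs, Igf2 among them, and IGF2BP1 and IGF2BP3 are mostly active in embryonic cells. In the mouse, Igf2 is expressed mainly from the paternal allele, whereas H19, Igf2r and, outside neurons, Grb10 are expressed mainly from the maternal allele.

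Sequences at the 2 loci for which the modified groups were named are given first, with that of a microRNA known to act on the messenger-binding proteins. RefSeq (assembly GRCm38.p6) lists 4 start sites for Igf2, on the minus strand of chromosome 7. Which of their transcripts the single array probe reads is not known. The most downstream start lies in a window of 300 bases, 250 before the start and 50 after it, at chr7:142657447-142657746 on the minus strand. Capitals mark GGGCGG, the GC box, searched on both strands with no other motif sought.
Igf2 most downstream promoter window: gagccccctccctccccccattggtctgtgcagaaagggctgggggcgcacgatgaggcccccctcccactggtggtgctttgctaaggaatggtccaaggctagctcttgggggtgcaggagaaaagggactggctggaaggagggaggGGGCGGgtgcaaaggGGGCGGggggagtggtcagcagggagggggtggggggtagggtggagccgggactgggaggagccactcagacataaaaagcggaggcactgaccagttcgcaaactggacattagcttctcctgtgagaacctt
This window held the motif 2 times, the next one upstream 1 time and the remaining Igf2 windows 0 times. Of 32851 promoter windows of that length, 35.7% held it. H19 is also the host transcript of a microRNA, miR-675, which is known to target Igf1r in the mouse placenta. The let-7 family is known to target messages of the Igf2bp family and Hmga2. Seeds, bases 2 to 8, are in capitals in the mature sequences, from RefSeq.
mmu-miR-675-5p: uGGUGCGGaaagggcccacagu
mmu-miR-675-3p: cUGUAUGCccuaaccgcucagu
mmu-let-7a-5p: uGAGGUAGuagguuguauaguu
The 3 seeds differ from one another. The arrays gave no microRNA level here, and no probe carried the name H19, so the reduction of H19 that names 1 group was not analysed here.

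Before the results, 1 array has to be set apart. Replicate arrays correlated across probes at 0.995 to 0.996 in the H19-labelled, Igf2-labelled and parthenogenetic groups, whereas the normal arrays correlated at 0.961, with 1027 probes more than 1 apart on the log2 scale. All 10 ES cell markers were detected on all 8 arrays, among them Pou5f1, Nanog, Sox2 and Zfp42. Their mean was 12.64 and 12.62 on the H19-labelled arrays, 12.44 and 12.49 on the Igf2-labelled arrays, 12.32 and 12.34 on the parthenogenetic arrays, and 12.44 and 12.31 on the normal arrays. The 26 measured markers of fibroblasts, often grown as feeder cells under ES cells, averaged 10.88 and 10.90 on the H19-labelled arrays, 11.48 and 11.52 on the Igf2-labelled arrays, 11.69 and 11.69 on the parthenogenetic arrays, and 11.77 and 10.31 on the normal arrays, on the log2 scale. All 6 measured defining fibroblast genes (Col1a1, Col1a2, Col3a1, Dcn, Lum and Thy1) were detected on every array. The summed intensity of the 26 markers was 98186 to 108063 units on the H19-labelled arrays, 149422 to 164346 on the Igf2-labelled arrays, 173748 to 177853 on the parthenogenetic arrays and 78888 to 199968 on the normal arrays. Normal replicate 2 was the lowest array on that list and the highest on the 5 measured markers of primitive and visceral endoderm, at 9.47 against 7.97 on normal replicate 1. In RNA of whole cultures, fewer cells of a type and less RNA per cell cannot be told apart. The part of these shifts in the results was not tested. All values come from background-corrected, quantile-normalised log2 intensities, and all groups share 1 estimate of each probe's spread in the fit. The wide normal pair therefore enlarges the error of every comparison, also of those that do not use it. Comparisons among the other 3 groups were therefore also fitted without both normal arrays.

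The Igf2 probe gave a strong signal, detected on all 8 arrays. Its log2 level was 14.98 and 14.94 on the H19-labelled arrays, 15.61 and 15.49 on the Igf2-labelled arrays, 15.58 and 15.62 on the parthenogenetic arrays, and 15.62 and 13.63 on the normal arrays. The Igf2-labelled and parthenogenetic arrays overlapped, the H19-labelled arrays were lower than both, and only 1 of the normal arrays was low. In group means the order was parthenogenetic, at 15.60 ± 0.03, then Igf2-labelled, at 15.55 ± 0.08, then H19-labelled, at 14.96 ± 0.03, then normal, at 14.63 ± 1.41 (SD, n = 2 each). The Igf2-labelled and parthenogenetic means did not differ beyond their spread, and the normal mean has a spread that covers all the others.

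**Figure D1:**
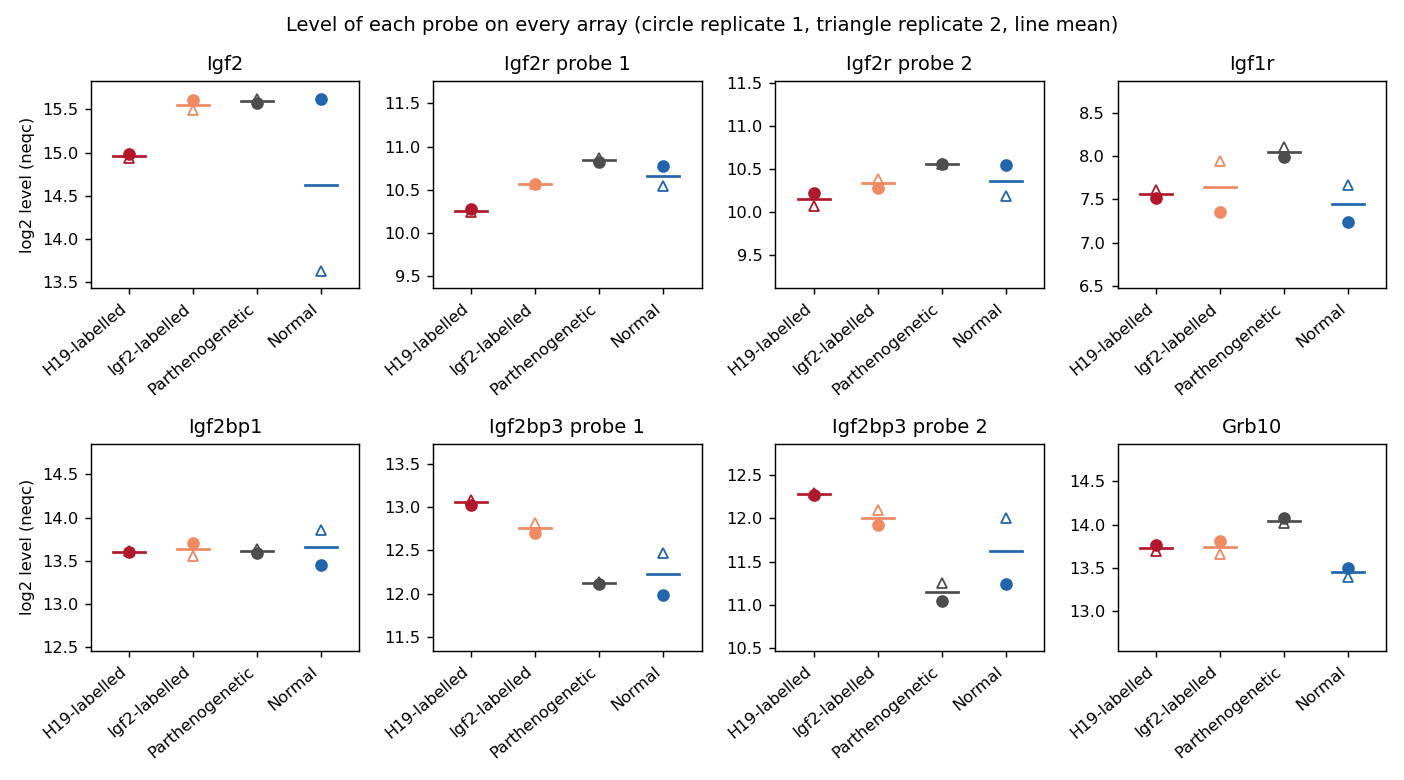
Log2 level of each of the 8 probes of the measured genes on each of the 8 arrays, grouped as H19-labelled, Igf2-labelled, parthenogenetic and normal, with 1 point per array and a bar at the group mean. Igf2 on normal replicate 2 stands at 13.63, below the other 7 arrays, and both Igf2bp3 probes are highest on the H19-labelled arrays.

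The group named for overexpression of Igf2 thus showed no higher Igf2 signal than its controls on this probe. Neither the vector nor the probe sequence is given in the sources used here. Whether the probe reads an introduced Igf2 transcript is therefore not known. The change of Igf2-labelled against parthenogenetic arrays was -0.05 on the log2 scale (SE 0.55, adjusted p = 0.992, 95% interval -1.36 to 1.26). Without both normal arrays the same change had an interval of -0.24 to 0.14 (adjusted p = 0.723). H19-labelled against parthenogenetic arrays gave a change of -0.64 (SE 0.55, adjusted p = 0.532), which passed without both normal arrays (SE 0.08, adjusted p = 0.00184). H19-labelled against Igf2-labelled arrays gave -0.59 (adjusted p = 0.656), which passed as well in that fit (adjusted p = 0.00462). The values are the same in both fits, and the errors differ by the spread between normal replicates 1 and 2.

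Against normal ES cells, the Igf2 change depended on 1 array. It was 0.97 for parthenogenetic arrays (adjusted p = 0.524), 0.92 for Igf2-labelled arrays (adjusted p = 0.451) and 0.33 for H19-labelled arrays (adjusted p = 0.805). Without normal replicate 1, parthenogenetic ES cells were higher by 1.97, and without normal replicate 2 the change was -0.02. Each of these values rests on 1 normal array, so the spread of the normal group is not measured there. The parthenogenetic cells, which lack a paternal genome, thus had an Igf2 signal close to that of normal replicate 1 and above that of normal replicate 2.

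The Igf2 probe stood near the brightest probes on several arrays, and whether the scanner scale limited a further rise was not tested. Its raw intensity was 33163 and 29655 units on the H19-labelled arrays, 50496 and 42088 on the Igf2-labelled arrays, 48301 and 50505 on the parthenogenetic arrays, and 54664 and 13183 on the normal arrays. The brightest probe of each array had 64070 to 67905 units. Igf2 therefore stood at 48.8% and 46.3% of the brightest probe on the H19-labelled arrays, at 74.4% and 64.6% on the Igf2-labelled arrays and at 73.4% and 74.4% on the parthenogenetic arrays. On the parthenogenetic arrays that leaves a factor of 1.36 and 1.34 to the brightest probe. A rise of the Igf2-labelled arrays beyond that factor would have gone past the brightest probe. In normal ES cells it was at 80.9% and 19.9% of the brightest probe, with 61 and 415 probes brighter than it.

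Probes in this range moved little in general. Among the 105 tested probes with a mean level above 15, the changes of Igf2-labelled against parthenogenetic arrays had an SD of 0.0984 and a median size of 0.032, where the 2258 probes with a mean under 8 had an SD of 0.358. For H19-labelled against parthenogenetic arrays these SDs were 0.182 and 0.478. The Igf2 change of -0.64 lay outside the SD of its range, and its 0.97 for parthenogenetic against normal arrays was the largest change among those 105 probes. No file marks a probe as saturated, so compression of the upper range was not tested beyond these values.

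**Figure D2:**
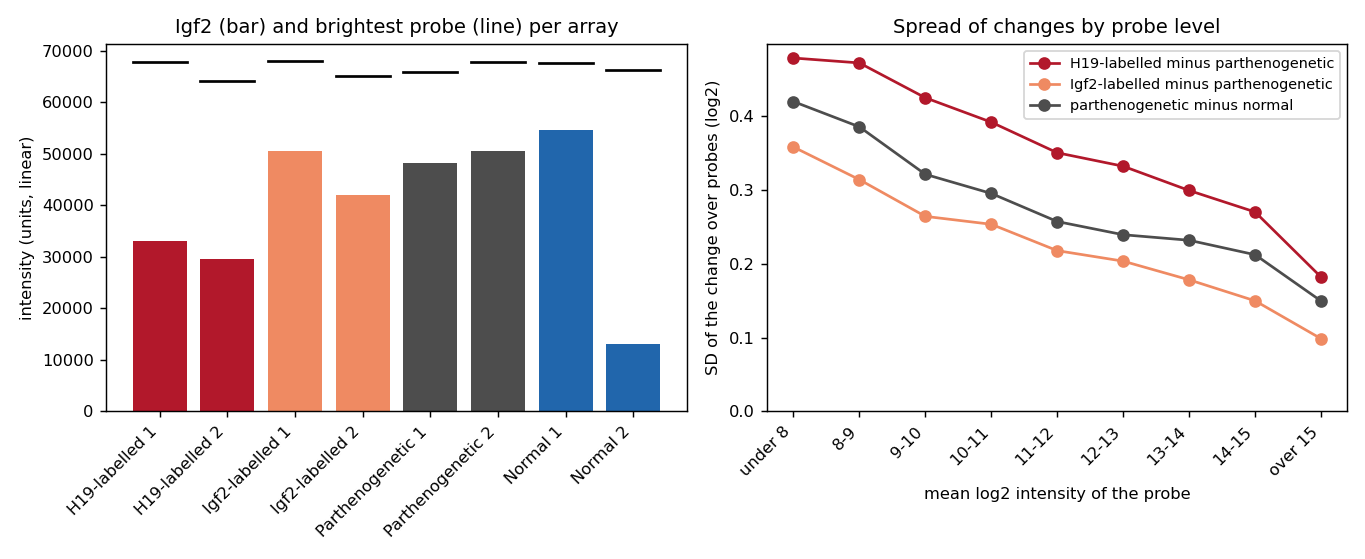
Left, linear intensity of the Igf2 probe on each array (bars) under that of the brightest probe of the same array (black lines). Right, SD of the log2 change over tested probes, by the mean log2 level of the probe, for 3 comparisons: the SD narrows to 0.182, 0.0984 and 0.149 among the 105 probes above 15.

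Of the 6 measured genes, Igf2r and Igf2bp3 passed the test for H19-labelled against parthenogenetic arrays, where 4.35% of all probes did. No gene passed for Igf2-labelled against parthenogenetic arrays (0.541% of all probes), for H19-labelled against Igf2-labelled arrays (0.201%), for parthenogenetic against normal arrays (0.108%) or for Igf2-labelled against normal arrays (1.05%). Igf2bp3 alone passed for H19-labelled against normal arrays (5.03%). A gene was counted by its brightest probe, at an adjusted p under 0.05 in limma. At an unadjusted p under 0.05, limma gave 3 genes (Igf2r, Igf2bp3 and Grb10) for H19-labelled against parthenogenetic arrays, where 23.0% of all probes were under it. It gave 2 (Igf2bp3 and Grb10) for Igf2-labelled against parthenogenetic arrays (11.1% of all probes), 1 (Igf2r) for H19-labelled against Igf2-labelled arrays (13.9%) and 2 (Igf1r and Grb10) for parthenogenetic against normal arrays (11.0%). For Igf2-labelled against normal arrays 2 genes (Igf2bp3 and Grb10) were under it (15.8%), and for H19-labelled against normal arrays 3 (Igf2r, Igf2bp3 and Grb10; 20.6%). Without regard to the test, the arrays of 5 of the 6 genes did not overlap for H19-labelled against parthenogenetic arrays: Igf2, Igf2r, Igf1r and Grb10 were lower, as were 32.7% of all probes, and Igf2bp3 was higher, as were 36.4%. For Igf2-labelled against parthenogenetic arrays Igf2r, Igf1r and Grb10 were lower without overlap, as were 29.2% of all probes, and Igf2bp3 was higher, as were 26.0%. The 2 comparisons with parthenogenetic arrays share those controls and are not independent of each other. Without both normal arrays 4 genes passed for H19-labelled against parthenogenetic arrays (Igf2, Igf2r, Igf2bp3 and Grb10), where 33.2% of all probes did. In that fit 1 gene, Igf2bp3, passed for Igf2-labelled against parthenogenetic arrays (9.70% of all probes), and 3, Igf2, Igf2r and Igf2bp3, for H19-labelled against Igf2-labelled arrays (20.6%).

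**Figure D3:**
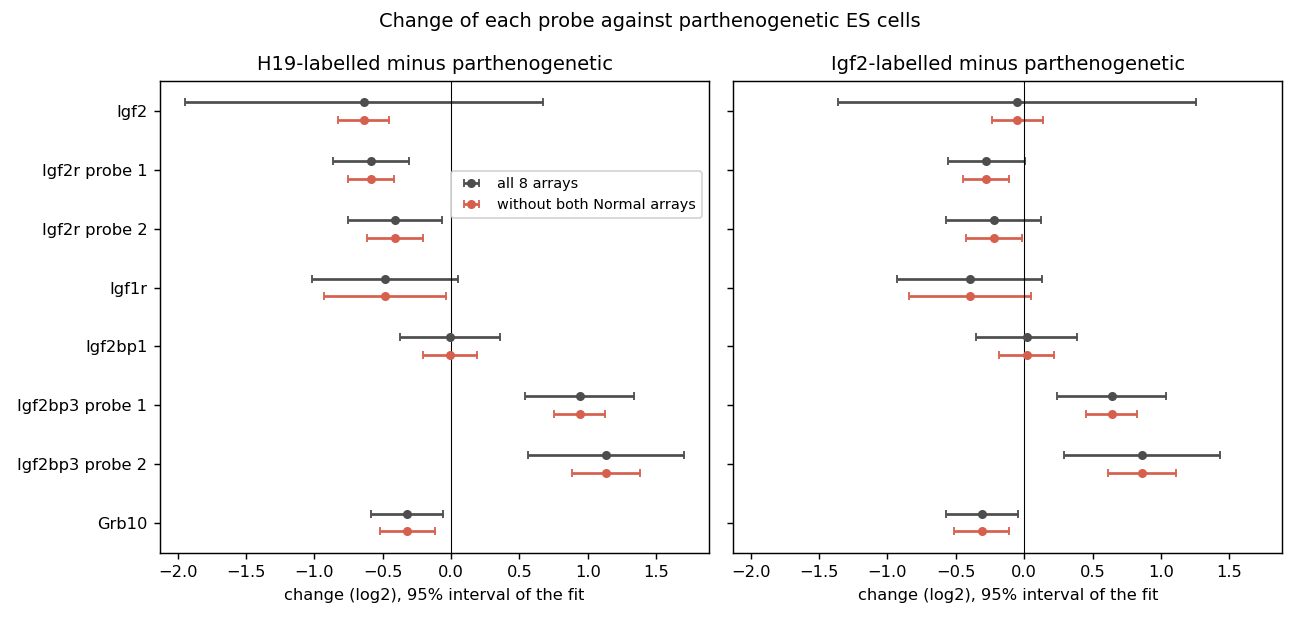
Change of each probe of H19-labelled (left) and Igf2-labelled (right) against parthenogenetic arrays on the log2 scale, with 95% intervals from the fit of all 8 arrays (grey) and without both normal arrays (red). The values are the same in both fits, and the Igf2 interval on the left includes 0 on all 8 arrays and lies below 0 without both normal arrays.

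Igf2r, the receptor that clears IGF2, was lowest on the H19-labelled arrays and highest on the parthenogenetic ones. Its brighter probe read 10.27 and 10.25 on the H19-labelled arrays, 10.57 and 10.57 on the Igf2-labelled arrays, 10.82 and 10.87 on the parthenogenetic arrays, and 10.78 and 10.54 on the normal arrays. The first 3 groups did not overlap one another, and the normal arrays spanned the Igf2-labelled level. The fall on the H19-labelled arrays against the parthenogenetic ones was -0.59 (SE 0.12, adjusted p = 0.0451), and this call was lost when any 1 array of the H19-labelled, Igf2-labelled or parthenogenetic groups was left out (adjusted p 0.117 to 0.279). Without both normal arrays the adjusted p was 0.00168.

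A separate Igf2r probe gave the same order with smaller steps. It read 10.22 and 10.08 on the H19-labelled arrays, 10.28 and 10.39 on the Igf2-labelled arrays, 10.56 and 10.55 on the parthenogenetic arrays, and 10.54 and 10.18 on the normal arrays. H19-labelled arrays again lay below parthenogenetic arrays with no overlap, but the change of -0.41 did not pass (adjusted p = 0.159), and it passed without both normal arrays (adjusted p = 0.0125). For Igf2-labelled against parthenogenetic arrays the probes gave -0.28 (adjusted p = 0.453) and -0.22 (adjusted p = 0.705). Neither passed without both normal arrays (adjusted p = 0.0592 and 0.159).

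Igf1r, the receptor through which IGF2 drives growth, had a weak signal that was detected on every array. It read 7.51 and 7.61 on the H19-labelled arrays, 7.35 and 7.94 on the Igf2-labelled arrays, 7.99 and 8.10 on the parthenogenetic arrays, and 7.24 and 7.66 on the normal arrays. Parthenogenetic arrays lay above those of all other groups, and the other 3 groups overlapped one another. No Igf1r change passed on all 8 arrays or without both normal arrays. In a fit of the H19-labelled and parthenogenetic arrays alone its change passed (adjusted p = 0.0133), as did 4039 probes in all. H19-labelled against parthenogenetic arrays gave -0.48 (interval -1.01 to 0.05, adjusted p = 0.251, and 0.0915 without both normal arrays), and Igf2-labelled against parthenogenetic arrays gave -0.40 (adjusted p = 0.624, and 0.235 without both normal arrays).

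Grb10, the adaptor that binds both growth-promoting receptors and dampens them, was highest in unmodified parthenogenetic cells. It read 13.76 and 13.69 on the H19-labelled arrays, 13.81 and 13.66 on the Igf2-labelled arrays, 14.07 and 14.02 on the parthenogenetic arrays, and 13.50 and 13.40 on the normal arrays. The modified groups overlapped each other and lay between the parthenogenetic and the normal arrays, with no overlap on either side. Parthenogenetic against normal arrays gave a change of 0.60 (SE 0.11, interval 0.34 to 0.87, adjusted p = 0.198), which did not pass. On the array as a whole, 17.7% of probes were higher in that comparison without overlap. H19-labelled against parthenogenetic arrays gave -0.32 (adjusted p = 0.151, and 0.0288 without both normal arrays). Igf2-labelled against parthenogenetic arrays gave -0.31 (adjusted p = 0.341, and 0.0717 without both normal arrays).

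The messenger-binding proteins behaved unlike each other. Igf2bp1 read 13.60 and 13.61 on the H19-labelled arrays, 13.71 and 13.55 on the Igf2-labelled arrays, 13.59 and 13.64 on the parthenogenetic arrays, and 13.45 and 13.86 on the normal arrays. All 4 groups overlapped, and its 6 changes lay within 0.05 of 0 (adjusted p 0.911 to 0.992). The interval for H19-labelled against parthenogenetic arrays was -0.37 to 0.36, and changes within it are not resolved by these arrays.

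Igf2bp3 was higher in both modified groups than in unmodified parthenogenetic cells, and the rise passed in the H19-labelled one. Its brighter probe read 13.03 and 13.09 on the H19-labelled arrays, 12.70 and 12.81 on the Igf2-labelled arrays, 12.10 and 12.13 on the parthenogenetic arrays, and 11.98 and 12.47 on the normal arrays. H19-labelled arrays were above all others, Igf2-labelled arrays came next, and normal arrays lay on either side of the parthenogenetic ones. The rise on H19-labelled arrays was 0.94 against parthenogenetic arrays (SE 0.17, adjusted p = 0.0342) and 0.83 against normal arrays (adjusted p = 0.0411). Leaving out any 1 array of the H19-labelled, Igf2-labelled or parthenogenetic groups ended both calls, with adjusted p 0.0957 to 0.237 for the first and 0.101 to 0.251 for the second. A fit of the H19-labelled and normal arrays alone ended the second as well (adjusted p = 0.287). Igf2-labelled against parthenogenetic arrays gave 0.64 (adjusted p = 0.189), and this passed without both normal arrays (adjusted p = 0.00758).

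A separate Igf2bp3 probe followed the same order. It read 12.27 and 12.29 on the H19-labelled arrays, 11.92 and 12.09 on the Igf2-labelled arrays, 11.04 and 11.25 on the parthenogenetic arrays, and 11.25 and 12.01 on the normal arrays. Both modified groups lay above the parthenogenetic arrays, and normal replicate 2 reached the Igf2-labelled level. H19-labelled against parthenogenetic arrays gave 1.13, just short of the threshold (adjusted p = 0.0513, and 8.31e-04 without both normal arrays). It passed under other background corrections, median centring, detection on all 8 arrays and in the authors' log2 table (adjusted p 0.0335 to 0.0463), and not with no detection filter (adjusted p = 0.0808) or without any 1 H19-labelled, Igf2-labelled or parthenogenetic array (adjusted p 0.118 to 0.287). Igf2-labelled against parthenogenetic arrays gave 0.86 (adjusted p = 0.214, and 0.00751 without both normal arrays). The difference between the modified groups was 0.30 and 0.27 for the 2 probes and did not pass (adjusted p = 0.459 and 0.634), and without both normal arrays that of the brighter probe passed (adjusted p = 0.039, against 0.112 for the other).

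Igf2bp3 lies on chromosome 6, and many other genes of that chromosome were higher in the same comparisons. The median change of the 442 other chromosome 6 genes was 0.41 for H19-labelled against parthenogenetic arrays. There 338 were higher and 72 past the threshold, as were 4.35% of all probes. The median was 0.32 for Igf2-labelled against parthenogenetic arrays, with 374 higher and 8 past the threshold (0.541% of all probes). Over all genes the medians were 0.01 and -0.01. For parthenogenetic against normal arrays the chromosome 6 median was -0.02. Igf2bp3 changed more than most of them: 28 of the 442 genes had a larger upward change for H19-labelled arrays and 50 for Igf2-labelled arrays. Its 10 nearest tested neighbours, 5 on each side, had median changes of 0.13 and 0.04, and 5 of 10 were higher in each comparison. The sides differed. For H19-labelled against parthenogenetic arrays the 5 before it were all lower (-0.97 to -0.05) and the 5 after it all higher (0.30 to 0.56). For Igf2-labelled against parthenogenetic arrays the changes were -0.20 to 0.11 before it and -0.16 to 0.43 after it. The part of the chromosome-wide shift in the Igf2bp3 change was not tested.

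**Figure D4:**
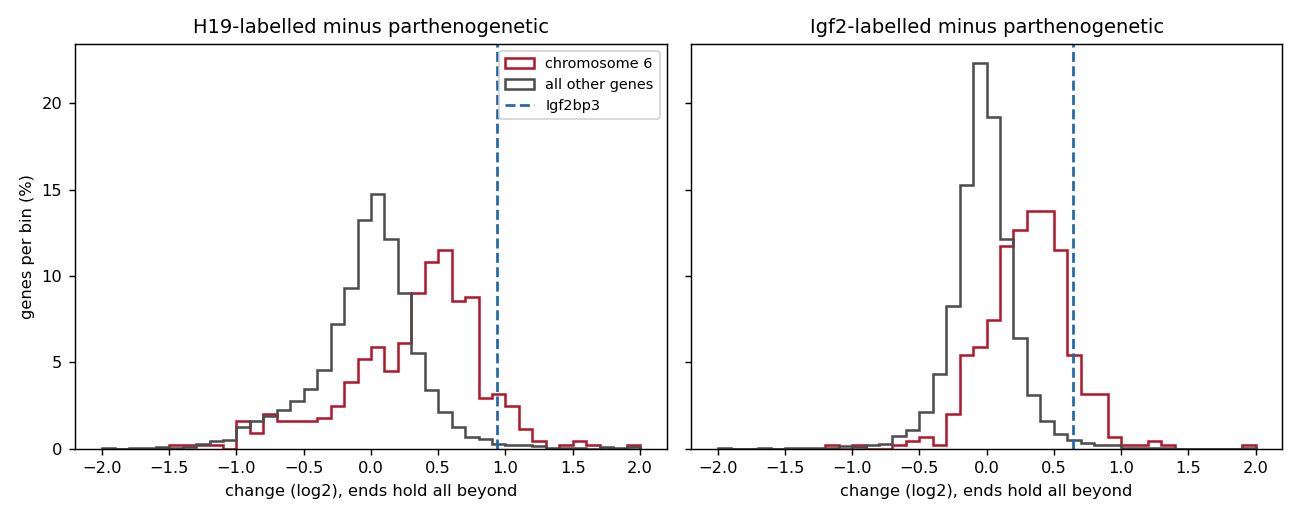
Distribution of the changes of the genes on chromosome 6, Igf2bp3 included, and of all other genes, for H19-labelled and Igf2-labelled against parthenogenetic arrays on the log2 scale, with Igf2bp3 marked. The 442 chromosome 6 genes other than Igf2bp3 have medians of 0.41 and 0.32, and the genes not on chromosome 6 are centred near 0.

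The measured binding proteins and other genes that act on IGFs outside the cell were lower on the H19-labelled than on the parthenogenetic arrays, as the fibroblast markers were. The list held other ligands, the IGF-binding proteins that carry or hold back IGFs, and the proteases and inhibitors that act on them. Of its 15 genes 8 were tested, none of them a ligand or a protease. None passed in any comparison on all 8 arrays, and 1 to 3 a comparison had an unadjusted p under 0.05 in limma, as had 11.0% to 23.0% of all probes. For H19-labelled against parthenogenetic arrays 8 of 8 were lower, with a median change of -0.62, where all genes had 0.01. Igfbp6 moved most, with means of 7.07 on the H19-labelled and 8.13 on the parthenogenetic arrays. Igfals moved least, with means of 8.47 and 8.53 and overlapping arrays. Without both normal arrays 7 of 8 fell in that comparison (17.1% of all probes fell). Beside them, 26 of 26 fibroblast markers were lower in the same comparison, with a median of -0.82. Of these 1, Ccn2, a secreted matrix protein, fell on all 8 arrays (-0.81, adjusted p = 0.0145, and 8.04e-04 without both normal arrays), and 25 fell without both normal arrays. The part of the fibroblast shift in the fall of the binding proteins was not tested.

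Igfbp7, a secreted protein related to the IGF-binding proteins, read 13.58 and 13.66 on the H19-labelled arrays, 14.18 and 14.05 on the Igf2-labelled arrays, 14.58 and 14.27 on the parthenogenetic arrays, and 14.54 and 12.64 on the normal arrays. H19-labelled arrays lay below the Igf2-labelled and parthenogenetic ones, and normal replicate 2 lay below them all. The change of H19-labelled against parthenogenetic arrays was -0.81 (adjusted p = 0.403, and 0.00362 without both normal arrays). Igfbp2, an abundant binding protein of embryonic tissues, had a different order. It read 12.15 and 11.95 on the H19-labelled arrays, 12.12 and 12.02 on the Igf2-labelled arrays, 12.78 and 12.67 on the parthenogenetic arrays, and 12.62 and 12.06 on the normal arrays. Both modified groups overlapped and lay below the parthenogenetic arrays, by -0.68 for H19-labelled (adjusted p = 0.101, and 0.00352 without both normal arrays) and -0.66 for Igf2-labelled arrays (adjusted p = 0.238, and 0.0145 without both normal arrays). Igfbp3, which holds IGFs in the circulation, gave -0.82 on the H19-labelled arrays against the parthenogenetic ones (adjusted p = 0.058, and 7.78e-04 without both normal arrays).

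**Figure D5:**
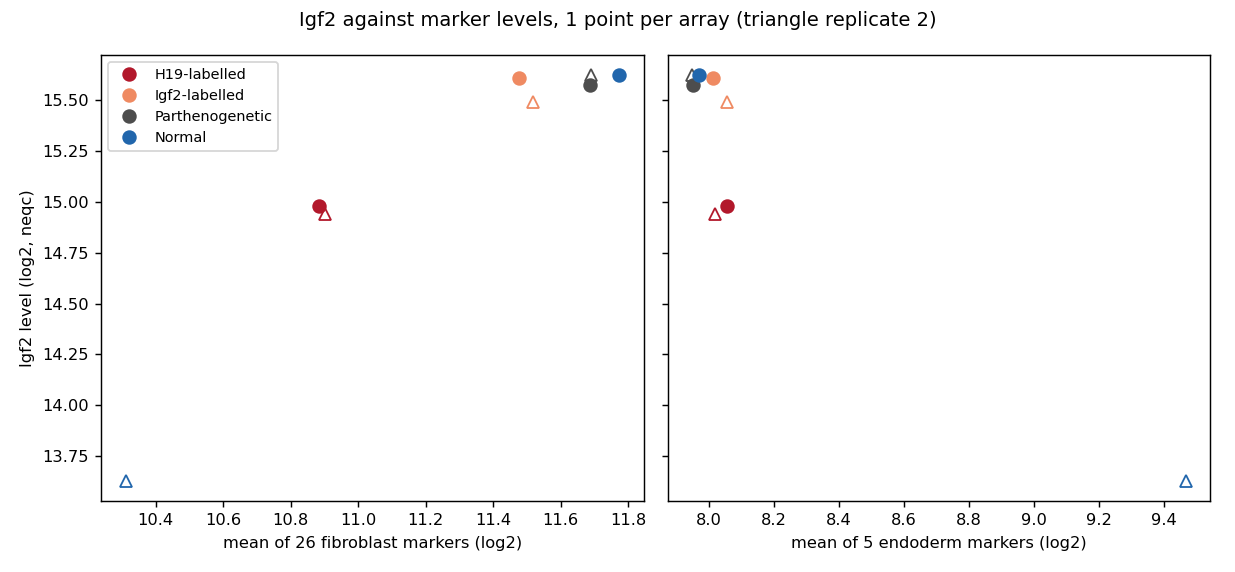
Igf2 level (vertical axis, log2) over the mean log2 level of the 26 fibroblast markers (horizontal axis) on each of the 8 arrays, coloured by group, with the mean of 5 endoderm markers in the same form on the right. Igf2 and the fibroblast markers are lowest together on normal replicate 2, at 13.63 and 10.31, and next lowest on the H19-labelled arrays.

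Igf2 was low on the arrays where the fibroblast markers were low. Normal replicate 2 had the lowest fibroblast mean, 10.31, and the lowest Igf2 level, and the H19-labelled arrays were next lowest in both. The 5 genes most like Igf2 by Pearson r over the 8 arrays were Atf5 (0.995), Lbh (0.994), Medag (0.993), Tspan3 (0.992) and Nfkbia (0.991). Over the 7 arrays without normal replicate 2 they had 0.948 to 0.972. Altogether 547 of 8732 other genes exceeded 0.9, so likeness of this degree was common. The arrays share a scale and fall into groups, and these values are a description only.

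The genes most like Igf2r were Abitram (0.985), Gbp7 (0.984), Nsmaf (0.983), Atp6v0e and Adam19 (0.980 each), with 179 genes above 0.9. Those most like Igf2bp3 were Cdca3 (0.990), Usp39 (0.989), Tead4, Rfx2 and Mthfd2 (0.986 each), with 259 genes above 0.9. Of these 5, 4 lie on chromosome 6 like Igf2bp3 itself, and Rfx2 lies on chromosome 17.

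Inside the cell, the signal transduction list changed little. It held insulin receptor substrates, adaptors and the kinases of the PI3K and mTOR branches, and 18 of 27 genes were tested. None passed on all 8 arrays in any comparison, with 1 to 3 at an unadjusted p under 0.05 in limma, where 11.0% to 23.0% of all probes were under it. The median change for H19-labelled against parthenogenetic arrays was -0.14. The largest was Irs2, a docking protein of the insulin and IGF receptors. Irs2 read 9.32 and 9.37 on the H19-labelled arrays, 10.44 and 10.74 on the Igf2-labelled arrays, 10.52 and 10.66 on the parthenogenetic arrays, and 10.81 and 9.73 on the normal arrays. H19-labelled arrays lay below all others. The change against parthenogenetic arrays was -1.25 (adjusted p = 0.0814, and 8.83e-04 without both normal arrays). Without both normal arrays 2 of the 18 fell in that comparison, where 17.1% of all probes fell: Irs2 and Grb14, an adaptor related to Grb10 (-0.76, adjusted p = 0.439 on all 8 arrays and 0.00335 in that fit).

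For Igf2r as a sorting receptor, the list of mannose 6-phosphate sorting held 16 genes, and 14 were tested. Vps26a, a subunit of the retromer that returns such receptors from endosomes, fell on the H19-labelled arrays against the normal ones by 0.56 on the log2 scale. It read 11.81 and 11.94 on the H19-labelled arrays and 12.15 on both Igf2-labelled arrays. On the parthenogenetic arrays it read 12.33 and 12.38, and on the normal arrays 12.42 and 12.44. The fall passed (adjusted p = 0.0307), as did 5.03% of all probes. A fit of the H19-labelled and normal arrays alone called 0 probes, so the call ended there. No other gene of the list passed on all 8 arrays. M6pr, the smaller mannose 6-phosphate receptor, ran the other way from Igf2r. It read 13.34 and 13.33 on the H19-labelled arrays, 13.20 and 13.13 on the Igf2-labelled arrays, 12.85 and 12.79 on the parthenogenetic arrays, and 13.16 and 12.65 on the normal arrays. H19-labelled arrays were above all others, and the change against parthenogenetic arrays was 0.51 (adjusted p = 0.138, and 0.0032 without both normal arrays). Like Igf2bp3, M6pr lies on chromosome 6. Ctsb, a lysosomal protease, gave -0.53 in that comparison (adjusted p = 0.241, and 0.0046 without both normal arrays).

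Of 10 known regulators of Igf2 and of the IGF2BP messages, 5 were tested and none passed on all 8 arrays, with 0 to 2 a comparison at an unadjusted p under 0.05 in limma, against 11.0% to 23.0% of all probes. Hmga2, a chromatin protein that raises Igf2bp2 expression and is a let-7 target, read 5.98 and 6.20 on the H19-labelled arrays, 6.65 and 6.99 on the Igf2-labelled arrays, 7.25 and 7.13 on the parthenogenetic arrays, and 6.89 and 5.62 on the normal arrays. It was not above background on either H19-labelled array or on normal replicate 2. Hmga2 was kept for testing only through the Igf2-labelled and parthenogenetic groups. It was at least 1.499-fold lower on the H19-labelled arrays than on the parthenogenetic ones, with the lowest value among detected probes as the floor of each H19-labelled array. The fits used the H19-labelled values below background instead (adjusted p = 0.148, and 0.00199 without both normal arrays), so these p-values do not test that bound. Lin28a, which blocks let-7 maturation, gave -0.05 (adjusted p = 0.934, and 0.871 without both normal arrays), and Ctcf, which binds the insulator between Igf2 and H19, gave 0.26 (adjusted p = 0.300, and 0.0502 without both normal arrays).

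Among the neighbours of the imprinted genes, 4 of 10 were tested. Of these 1, Ddc, passed for H19-labelled against parthenogenetic arrays, where 4.35% of all probes did. Ddc, an enzyme of dopamine synthesis beside Grb10 that is paternally expressed in the mouse heart, read 10.42 and 10.37 on the H19-labelled arrays, 10.23 and 10.08 on the Igf2-labelled arrays, 9.34 and 9.30 on the parthenogenetic arrays, and 9.88 and 10.59 on the normal arrays. Parthenogenetic arrays were the lowest for Ddc and, as given above, the highest for Grb10. Ddc rose on the H19-labelled arrays against the parthenogenetic ones by 1.07 (adjusted p = 0.0474, and 6.01e-04 without both normal arrays), while Igf2-labelled arrays gave 0.84 (adjusted p = 0.192, and 0.00432 without both normal arrays). Cobl, on the other side of Grb10, gave 0.80 on the H19-labelled arrays (adjusted p = 0.0801, and 0.00136 without both normal arrays). The 10 nearest tested neighbours of Igf2 had a median change of -0.23 for H19-labelled against parthenogenetic arrays. Of these neighbours 1 passed, where 4.35% of all probes did. That was Cdkn1c, a maternally expressed inhibitor of cell division, with -1.56 (adjusted p = 0.0229), named after its value was seen.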

How the data were processed

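Per the labels' protocols, total RNA was made into biotin-labelled cRNA for Illumina arrays. The authors deposited probe intensity values without normalization between arrays and, per the file headers, a detection p-value beside each. The lowest intensity was 52.07 units, far from 0, and nothing in the values points to a subtracted background. Their other deposited table gives log2 values of the 12690 probes that were detected on 4 or more arrays. What software scanned the arrays or normalized that table is not given in the sources used here.

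Titles gave the groups and replicate numbers, and 0 value columns remained without a sample. The neqc function of limma 3.58.1 (R 4.3.3, offset 16) corrected the background, quantile normalized the arrays and took log2. The filter on detection p-values, 0.05, left 12932 probes. Group means of 4 groups on 8 arrays were fitted with lmFit and moderated with eBayes, which left 4 residual degrees of freedom and added 2.81. Adjusted p-values are limma's, by Benjamini and Hochberg's method in each of 6 comparisons over those probes, with 0.05 as threshold. Leaving out both normal arrays kept values and probes as they were with 3 residual degrees of freedom and 3.29 added. The limma step was tested on simulated data. The small number of arrays, 2 a group, limits the precision. Median intensities were 172 to 197 units, and 47.1% to 49.5% of probes were detected.

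The platform annotation gave 11960 probes a single gene and did not name the other 13737 here. By gene identifier, 11953 named probes were found in RefSeq (GRCm38.p6). List genes with several probes were read from the one with the highest mean. The genes, lists, comparisons and alternatives were chosen with earlier results of these data known. Named were every probe of the genes under study, list members past the threshold in either fit (by size), up to 3 others a list, and the 5 genes most like Igf2, Igf2r and Igf2bp3. Alternatives were changes of background correction, of scaling and of the detection filter, the log2 table of the authors, fits restricted to the groups compared, the replicate number as a block, and leaving out arrays. Deviations of same-numbered arrays from their group means correlated at -0.03 to 0.17 between groups, so the numbers were not treated as pairs. The brightest probes changed least, and whether the upper end of the scale limits them was not tested.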

Additional observations from a re-analysis of the deposited data

How the results depend on the processing

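The probe changes of the 6 genes kept their sign under other background corrections, detection filters and the authors' log2 table. Median centring turned Igf2bp1 to 0.016 for H19-labelled against parthenogenetic and to 6.7e-04 for H19-labelled against Igf2-labelled arrays, and Grb10 to 0.0040 for H19-labelled against Igf2-labelled arrays. Fits of only the groups compared called 5 of the 6 genes for H19-labelled against parthenogenetic arrays, 1 for Igf2-labelled against parthenogenetic, 2 for H19-labelled against Igf2-labelled and 0 for H19-labelled against normal, with 4039, 874, 2271 and 0 probes in all. Igf2 then passed with -0.64 (adjusted p = 0.00415) and -0.59 (adjusted p = 0.0129) for H19-labelled against parthenogenetic and against Igf2-labelled arrays. Without both normal arrays 4, 1 and 3 genes passed in the first 3, with 4288, 1254 and 2663 probes in all, and Igf2 at -0.64 and -0.59 (adjusted p = 0.00184 and 0.00462). With only the groups compared, parthenogenetic and Igf2-labelled against normal arrays gave 0 and 2 probes; limma had 519 and 980 there at an unadjusted p under 0.05, and 1518 for H19-labelled against normal. With no detection filter 0 genes passed for H19-labelled against normal arrays. For H19-labelled against Igf2-labelled arrays 14 probes passed under median centring, 9 with detection on all 8 arrays and 17 in the authors' log2 table, against 26, and for parthenogenetic against normal arrays 2 and 8 in the last pair, against 14. The replicate block left 1 of the 6 genes, Igf2bp3, for H19-labelled against parthenogenetic arrays (Igf2r adjusted p = 0.0731) and 314 probes in all, 26 for Igf2-labelled against parthenogenetic, 3 for H19-labelled against Igf2-labelled and 47 for Igf2-labelled against normal arrays, and it changed no other call of the 6 genes' counts. Leaving out each array in turn, Igf2 ran from -0.66 to -0.61 for H19-labelled against parthenogenetic, -0.11 to 0.0072 for Igf2-labelled against parthenogenetic, -0.65 to -0.53 for H19-labelled against Igf2-labelled, -0.024 to 1.97 for parthenogenetic against normal, -0.075 to 1.92 for Igf2-labelled against normal and -0.66 to 1.33 for H19-labelled against normal arrays. In the same order the genes past the threshold ran from 0 to 4, 0 to 1, 0 to 3, 0 to 4, 0 to 2 and 0 to 3, and all probes from 0 to 4288, 2 to 1254, 0 to 2663, 3 to 5193, 2 to 5300 and 36 to 3952. The highest counts came without normal replicate 1 or 2, where 1 normal array is left and the normal group adds no spread. Other signs turned as well: Igf2bp1 ran from -0.033 to 0.019, -0.063 to 0.10, -0.10 to 0.056, -0.25 to 0.16, -0.23 to 0.18 and -0.25 to 0.16 in that order. Igf1r ran from -0.38 to 0.21 and Grb10 from -0.083 to 0.065 for H19-labelled against Igf2-labelled arrays, and Igf2bp3 from -0.35 to 0.14 (brighter probe) for parthenogenetic against normal. For Igf2-labelled against normal arrays the ranges were -0.21 to 0.031 and -0.21 to 0.15 for the Igf2r probes, -0.10 to 0.49 for Igf1r and -0.0038 to 0.76 for the dimmer Igf2bp3 probe, and Igf1r ran from -0.10 to 0.33 for H19-labelled against normal. The cause was not tested. Listed genes other than the 6 were recomputed only without both normal arrays.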
